A study of Homo sapiens with 9 samples.

Results

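The mitosis and G2/M genes described here are 45 genes that act between the end of DNA replication and the separation of the daughter cells, among them the mitotic cyclins, the Aurora kinases, the spindle checkpoint and the kinetochore. They were chosen by name, and each was read from the array probe whose RefSeq transcript belongs to it, with the probe of highest mean taken where a gene had several. This gave 44 genes, of 21743 gene names on the array, and all 44 were detected on all 9 arrays. PLK1 had no probe matched in this way and is not analysed here.

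RNA came from cultures of A549, an established human lung adenocarcinoma cell line, hybridised on 1-colour expression arrays, with 3 arrays in each of 3 groups. Parental A549 cells, labelled with passages P98, P98 and P99, carried no vector. OSK-A549 cells had been transduced with retroviral pMXs vectors for OCT3/4, SOX2 and KLF4, factors used to reprogram somatic cells, and both OSK-A549 groups were labelled P106, P107 and P106. Per the study's methods, OSK-A549-Colony cells were the picked colonies that stayed attached during a short trypsin treatment, and OSK-A549-SN cells were the cells around the colonies that the same treatment released. The same account gives 3 independent transduction experiments as the source of the RNAs of all 3 groups. Both OSK-A549 groups share the vectors and the later passage, so that transduction and passage cannot be told apart in any comparison with the parental cells. Whether either group was clonal was not examined here.

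Genes of this kind are transcribed in waves. In resting and G1 cells the DREAM complex, built on the MuvB core with E2F4 and DP proteins, keeps them low. In S phase the MuvB core joins B-MYB, the product of MYBL2, and later FOXM1, and transcription climbs until cyclin B and CDK1 drive the cell into mitosis. Their messages are therefore low in cells that do not divide and high in cells in G2 and mitosis, and MKI67 and TOP2A are used as proliferation markers in tumour pathology. In RNA from a whole culture, fewer cells in G2 or mitosis and less of each message per cell cannot be told apart.

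Many promoters of these genes carry a CHR element near the start of transcription, bound by the MuvB core, and CCAAT boxes upstream of it, bound by NF-Y. Promoters of 39 of the 45 genes were in the RefSeq promoter table (GRCh38.p14), and the 250 bases before each start were searched on both strands for the CHR element (TTTGAA or TTCGAA, of which the latter reads the same on both strands) and for CCAAT. Matches of the 2 elements could overlap. A CHR match was present in 23 of 39 genes (59%), against 17.2% of all 27305 gene symbols in the table. Within the last 50 bases before the start it was present in 16 of 39 (41%), against 3.06% of all. CCAAT was present in 32 (82.1%), against 37% of all, and both elements lay in a promoter of 21 (53.8%), against 6.24%. Counted by promoter, since some genes had several, a CHR match was in 51% of 49 promoters of these genes and 14.3% of all 35116.

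The 150 bases before the start are shown, 5′ to 3′ on the gene's strand, for 6 of the genes described below whose promoters hold both elements, to show how the elements sit. Capitals mark the matches, and ATTGG and TTCAAA are the elements read on the other strand. CDC25C lies on the minus strand at chr5:138331805-138331954, ESPL1 on the plus strand at chr12:53268149-53268298, CCNB2 on the plus strand at chr15:59104996-59105145, GTSE1 on the plus strand at chr22:46296720-46296869, KIF4A on the plus strand at chrX:70289954-70290103 and PRC1 on the minus strand at chr15:90994536-90994685.
CDC25C: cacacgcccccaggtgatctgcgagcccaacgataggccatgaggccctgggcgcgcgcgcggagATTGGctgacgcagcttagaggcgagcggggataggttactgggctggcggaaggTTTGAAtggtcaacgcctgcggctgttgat
ESPL1: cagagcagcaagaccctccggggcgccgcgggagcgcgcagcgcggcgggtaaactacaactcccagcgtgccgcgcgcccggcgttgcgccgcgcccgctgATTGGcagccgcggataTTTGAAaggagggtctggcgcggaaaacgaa
CCNB2: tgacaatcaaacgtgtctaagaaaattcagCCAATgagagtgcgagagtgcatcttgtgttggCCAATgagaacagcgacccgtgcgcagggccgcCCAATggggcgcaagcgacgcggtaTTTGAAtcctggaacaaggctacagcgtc
GTSE1: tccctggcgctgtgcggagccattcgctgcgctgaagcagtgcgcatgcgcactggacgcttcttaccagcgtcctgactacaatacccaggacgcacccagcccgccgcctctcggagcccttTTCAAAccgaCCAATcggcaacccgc
KIF4A: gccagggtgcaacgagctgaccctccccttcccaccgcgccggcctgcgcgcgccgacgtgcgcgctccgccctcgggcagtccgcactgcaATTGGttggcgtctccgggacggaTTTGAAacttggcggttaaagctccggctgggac
PRC1: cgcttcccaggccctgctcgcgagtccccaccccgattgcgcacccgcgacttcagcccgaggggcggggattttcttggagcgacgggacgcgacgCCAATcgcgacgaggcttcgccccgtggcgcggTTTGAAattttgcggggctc
In CCNB2 3 CCAAT boxes began 120, 87 and 54 bases before the start and the CHR match 29 bases before it. In CDC25C, ESPL1, KIF4A and PRC1 the CHR match began 30, 31, 34 and 20 bases before the start, with 1 CCAAT box upstream of it. GTSE1 had the opposite order, with the CHR match at 26 and the CCAAT box at 16 bases before the start.

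The same search was made in other lists. Of 56 other G2/M and mitosis genes, 44 had a promoter, with a CHR match in 19 (43.2%), in the last 50 bases in 10 (22.7%), and CCAAT in 30 (68.2%). Of 11 MuvB and DREAM subunits, 10 had a promoter, 4 of them with a CHR match (40%) and 1 with one in the last 50 bases. Of 31 genes for mitotic machinery that is not restricted to the cell cycle, such as subunits of the anaphase promoting complex and of cohesin, 28 had a promoter, 5 of them with a CHR match (17.9%) and 0 with one in the last 50 bases. Of 42 DNA replication and G1/S genes, 37 had a promoter and 2 held a CHR match (5.41%). These counts are descriptions of letters and were not set against a test.

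Values below are log2 intensities relative to the 75th percentile of the same array, so that a value of 0 is the level of a fairly bright probe and a difference of 1 is a doubling. Levels of different genes are not compared, since each probe has its own brightness. Between 25808 and 29315 of 50599 probes were detected on an array, and no spot was saturated. All 9 epithelial marker genes were detected on every array. Of 6 fibroblast markers at most 1 was detected on any array, and 4 or 5 of 8 blood and endothelial markers were detected, with PECAM1 on no array. The third SN array was on a slide of its own and the other 8 arrays shared a slide.

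Across the 3 groups the mean was highest in SN cells in 38 of 44 members, with parental cells between SN and Colony cells in 20 and Colony cells between SN and parental cells in 18. The remaining members were highest in Colony cells in 3 cases and in parental cells in 3. When each member was centred on its mean over the 9 arrays, the median member stood at 0.27, 0.24 and 0.18 on the SN arrays, at -0.12, -0.18 and -0.18 on the Colony arrays, and at 0.23, -0.02 and -0.41 on the parental arrays. The SN and Colony arrays therefore did not overlap in this median, while the parental arrays ran from near the SN level to below the Colony level.

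**Figure D1:**
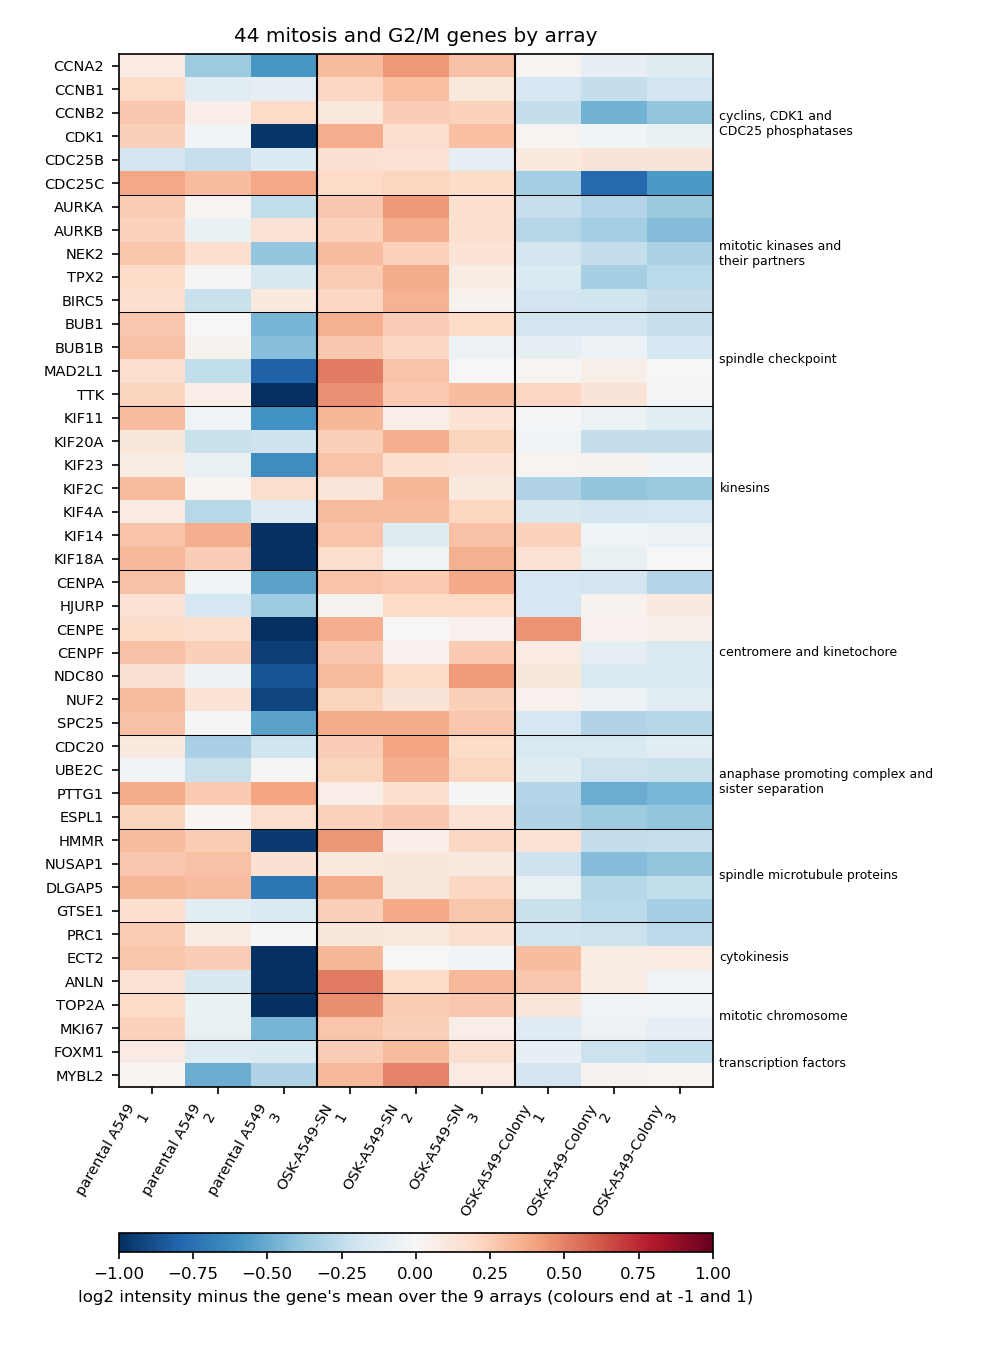
Heat map of the 44 members (rows, grouped by role) on the 9 arrays (columns), as log2 intensity minus the gene's mean over the 9 arrays. The SN columns are mostly red and the Colony columns mostly blue, and the third parental column holds the deepest blue, with 24 of 44 members at their lowest there.

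The F test across the 3 groups passed an adjusted p of 0.05 for 8 of 44 members (18.2%), against 11.4% of all 33083 probes tested. These were CDC25C, PTTG1, ESPL1, NUSAP1, CCNB2, AURKB, KIF2C and GTSE1. Their parental arrays lay close together, with an SD between 0.05 and 0.17, while the median SD of all members over the parental arrays was 0.34. At an unadjusted p under 0.05 there were 22 members (50%), against 30.5% of all probes. The count past the adjusted threshold was 1 without the second or the third Colony array (3.16% and 3.71% of all probes), 2 without the first or the second SN array (5.15% and 4.95%), 3 without the second parental array (3.02%) and 4 without the first Colony array (5.87%). It was 11 without the first parental array (11.8%) and 15 without the third (12.2%). With the replicate number as a block it was 1 (3.61%). With arrays scaled to their median it was 2 (9.2%), and with no detection filter 2 (3.91%).

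The comparison of OSK-A549-Colony with OSK-A549-SN cells asks how the colonies differ from the cells that grow around them. The mean of 41 of 44 members was lower in Colony cells, by a median of -0.41 on the log2 scale over all members, where the median of all 31746 probes tested was -0.06 and 58.1% of them were lower. In 34 members (77.3%) all 3 Colony arrays lay below all 3 SN arrays, which was so for 17.3% of all probes, and in 0 members did they all lie above, against 13.5%. The changes were small, between -0.76 and 0.05. With the slide as a block, which here equals leaving out the third SN array, the median was -0.45 and 43 members were lower. With arrays scaled to their median, which moved the median of all probes to 0.07, the median of the members was -0.28 and 40 were lower. For 7 members the array held 8 further probes, and all 8 were lower in Colony cells too. The unscaled summed intensity of the 9 epithelial markers was 367100 to 382400 on the Colony arrays and 397400 to 408300 on the SN arrays. The 75th percentile of intensity was 234 to 251 on the Colony arrays and 218 to 271 on the SN arrays. The sums were not divided by it, so they give no direction. On the scaled values 5 markers were lower and 4 higher in Colony cells, with a median of -0.09 and 0 called. At an unadjusted p under 0.05 there were 2, both higher. Over the 3 groups 3 of the 9 passed the F test (33.3%), against 11.4% of all probes. Of the blood and endothelial markers tested, 5 of 6 were lower in Colony than in SN cells. Their median was -0.63, with 0 called and 1 at an unadjusted p under 0.05. Only 4 were detected on all arrays compared. KDR and CD3E were detected on 1 SN array each and on 0 Colony arrays. For these genes the detection filter favoured a lower value in Colony cells, so the count and median lean that way. Of the 7 mesenchymal markers 3 were lower and 4 higher, with a median of 0.05, 0 called and 3 at an unadjusted p under 0.05. Their part in the differences of the members was not tested. No member passed an adjusted p of 0.05 in limma (smallest 0.105), nor did any of the 31746 probes (0%), with or without a fold over 2 (0%). At an unadjusted p under 0.05, 29 members were lower and none higher, against 10.7% of all probes lower at that threshold. The count of calls depended on settings of the test. With normexp background correction 13 members were called, with only probes detected on all 6 arrays 12, and with the trend and robust options of eBayes 24, all of them lower in Colony cells. Those settings called 1.72%, 2.63% and 3.37% of all probes.

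**Figure D2:**
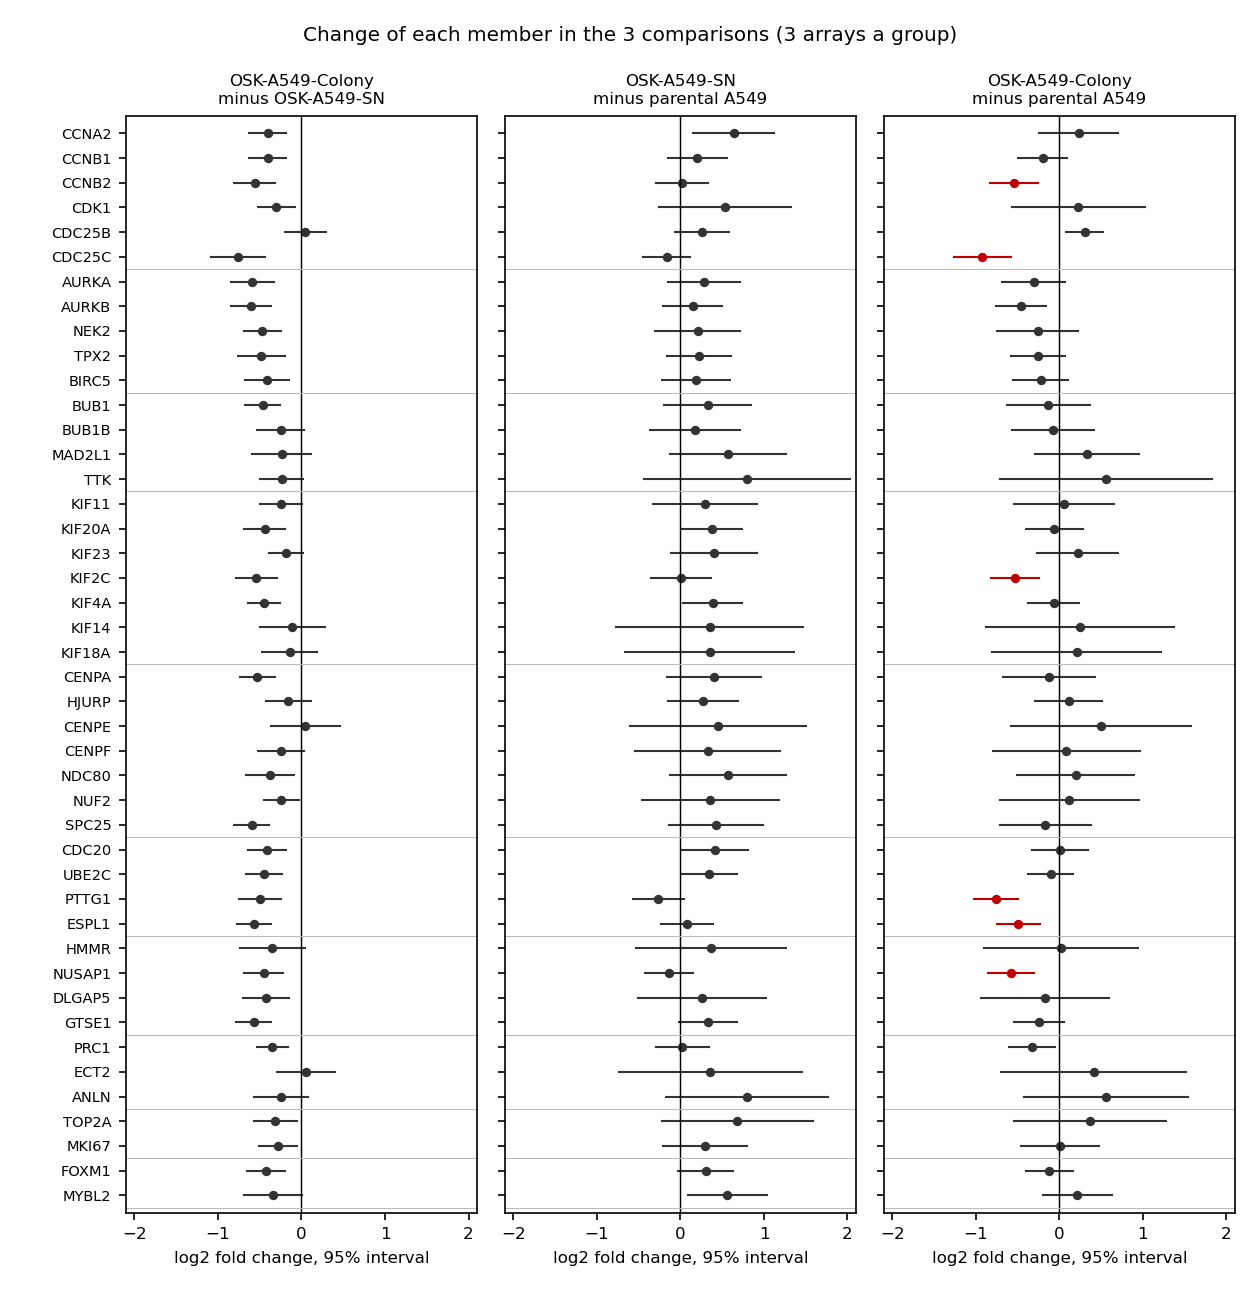
Log2 fold change of each of the 44 members (points) with its 95% interval (lines) in the 3 comparisons, grouped by role as in the heat map, with red for an adjusted p under 0.05. In the left panel 41 points lie below 0 and none is red, in the middle panel 41 lie above 0 and none is red, and in the right panel 6 are red, all below 0.

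Of the cyclins, CDK1 and the CDC25 phosphatases, 5 of 6 were lower in Colony than in SN cells. CDC25C, a phosphatase that removes inhibitory phosphates from CDK1, had the largest difference of all members. It read -0.05, -0.49 and -0.28 on the Colony arrays, 0.49, 0.50 and 0.47 on the SN arrays and 0.68, 0.59 and 0.68 on the parental arrays. The 3 groups did not overlap, with Colony lowest and parental highest. The Colony minus SN difference was -0.76 ± 0.13 (SE; adjusted p = 0.106), a fold of 1.7. CCNB2, a B-type cyclin, read 4.81, 4.58 and 4.65 in Colony, 5.15, 5.29 and 5.29 in SN and 5.32, 5.12 and 5.24 in parental cells, so that SN and parental arrays were intermingled and Colony arrays stood below both. Its difference between Colony and SN was -0.56 ± 0.10 (SE; adjusted p = 0.11).

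CCNB1, the main partner of CDK1 at entry into mitosis, read 4.44, 4.37 and 4.43 in Colony, 4.82, 4.92 and 4.72 in SN and 4.81, 4.51 and 4.52 in parental cells. Colony arrays were again below all others, and the first parental array reached the SN level. CDK1, the kinase itself, read 3.72, 3.67 and 3.62 in Colony, 4.06, 3.87 and 4.00 in SN, and 3.93, 3.67 and 2.73 in parental cells. The Colony and SN arrays were separate, and the third parental array was far below both. The differences between Colony and SN were -0.41 ± 0.09 for CCNB1 and -0.30 ± 0.09 for CDK1 (SE; adjusted p = 0.126 and 0.179). CDC25B, a phosphatase of the same family as CDC25C, differed by 0.05 with a 95% interval from -0.20 to 0.29, and its arrays overlapped.

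All 5 mitotic kinases and partners (AURKA, AURKB, NEK2, TPX2 and BIRC5) were lower in Colony than in SN cells without overlap, by -0.60 to -0.41. AURKB, the kinase of the chromosomal passenger complex that corrects kinetochore attachments, read 1.08, 1.03 and 0.93 in Colony, 1.60, 1.73 and 1.53 in SN and 1.60, 1.30 and 1.52 in parental cells. The difference of Colony from SN was -0.60 ± 0.09 (SE; adjusted p = 0.106). AURKA, the kinase of the centrosome and spindle poles, read 3.38, 3.32 and 3.24 in Colony, 3.89, 4.05 and 3.77 in SN and 3.87, 3.64 and 3.37 in parental cells. For AURKA the parental arrays reached from the SN level to the Colony level, whereas for AURKB the 3 parental arrays all stood above the Colony arrays.

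The 4 spindle checkpoint genes, whose products delay anaphase until chromosomes are attached, were lower in Colony than in SN cells by -0.46 to -0.24. BUB1 was the clearest, at 2.03, 2.03 and 1.97 in Colony and 2.56, 2.45 and 2.39 in SN cells, with parental values of 2.48, 2.21 and 1.74. MAD2L1 read 2.42, 2.45 and 2.39 in Colony and 2.90, 2.68 and 2.40 in SN cells, and these ranges overlapped through the third SN array. TTK, the kinase that starts the checkpoint signal, read 0.54, 0.47 and 0.32 in Colony and 0.80, 0.60 and 0.64 in SN cells, narrowly separate. Its parental arrays read 0.56, 0.40 and -1.31, the widest spread of any member.

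Of the 7 kinesins, which move chromosomes and build the spindle and the midbody, all were lower in Colony cells on the mean and 5 were without overlap. KIF2C, a kinesin that takes microtubules apart at centromeres, read 3.49, 3.40 and 3.42 in Colony, 3.92, 4.13 and 3.89 in SN and 4.11, 3.81 and 3.97 in parental cells. KIF4A, which acts on chromosome arms and the central spindle, read 2.13, 2.11 and 2.12 in Colony, 2.61, 2.60 and 2.51 in SN and 2.38, 2.02 and 2.17 in parental cells. The Colony values of KIF4A were nearly identical, and the second parental array lay below them. KIF4A has a near-identical copy, KIF4B, whose transcript its probe may also bind. KIF14 and KIF18A had the smallest differences of the group, -0.11 and -0.14, and overlapped.

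Of the 7 centromere and kinetochore genes, 6 were lower in Colony cells and 4 without overlap. SPC25, a subunit of the NDC80 complex that binds microtubules, had the smallest p of all members in this comparison. It read 2.78, 2.66 and 2.67 in Colony, 3.33, 3.33 and 3.23 in SN and 3.25, 2.94 and 2.42 in parental cells. CENPA, the histone variant that marks centromeres, read 1.73, 1.71 and 1.60 in Colony, 2.19, 2.16 and 2.28 in SN and 2.19, 1.87 and 1.37 in parental cells. Colony stood below SN cells by a fold of 1.51 in SPC25 and 1.44 in CENPA. CENPE, a kinetochore kinesin, differed by 0.05 with an interval from -0.36 to 0.46.

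The 4 genes of the anaphase promoting complex and sister separation (CDC20, UBE2C, PTTG1 and ESPL1) were all lower in Colony cells without overlap, by -0.57 to -0.41. PTTG1 encodes securin, which holds separase in check until anaphase, and ESPL1 encodes separase, which cuts cohesin. PTTG1 read 5.77, 5.56 and 5.60 in Colony, 6.13, 6.23 and 6.06 in SN and 6.43, 6.33 and 6.46 in parental cells, so that the 3 groups did not overlap. ESPL1 read 2.62, 2.57 and 2.53 in Colony, 3.16, 3.20 and 3.07 in SN and 3.15, 2.95 and 3.10 in parental cells, where SN and parental arrays overlapped and Colony arrays were below. PTTG1 has near-identical copies elsewhere in the genome, and its probe may read them too.

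The 4 spindle microtubule proteins were lower in Colony cells by -0.57 to -0.35, and 3 of them without overlap. NUSAP1, which bundles spindle microtubules, read 2.73, 2.51 and 2.55 in Colony, 3.04, 3.06 and 3.04 in SN and 3.21, 3.23 and 3.10 in parental cells. GTSE1, a microtubule-binding protein made in G2 and S phase, read 1.46, 1.41 and 1.35 in Colony, 1.92, 2.06 and 1.96 in SN and 1.84, 1.58 and 1.54 in parental cells. For NUSAP1 the order was parental, SN, Colony, and for GTSE1 it was SN, parental, Colony, in each case without overlap.

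Of the 3 cytokinesis genes, PRC1 was lower in Colony cells without overlap and the other two were not separate. PRC1, which bundles the microtubules of the central spindle, read 4.94, 4.92 and 4.87 in Colony, 5.25, 5.24 and 5.29 in SN and 5.39, 5.21 and 5.12 in parental cells. ECT2, the exchange factor that positions the cleavage furrow, read 2.26, 2.02 and 2.03 in Colony, 2.29, 1.95 and 1.92 in SN and 2.23, 2.19 and 0.66 in parental cells. ECT2 was the largest upward difference, 0.05 with an interval from -0.29 to 0.40, and its sign turned when the first Colony array or the third SN array was left out. ANLN, which ties the furrow's actin to its septins, read 1.29, 1.09 and 0.98 in Colony, 1.54, 1.22 and 1.34 in SN and 1.16, 0.86 and -0.33 in parental cells.

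The proliferation markers MKI67 and TOP2A and the transcription factors FOXM1 and MYBL2 were lower in Colony cells by -0.42 to -0.29. MKI67 read 1.77, 1.85 and 1.81 in Colony, 2.18, 2.14 and 1.97 in SN and 2.13, 1.83 and 1.44 in parental cells. TOP2A, the topoisomerase that untangles sister chromosomes, read 3.08, 2.93 and 2.93 in Colony, 3.43, 3.22 and 3.23 in SN and 3.16, 2.90 and 1.77 in parental cells. FOXM1 read 2.53, 2.40 and 2.37 in Colony, 2.86, 2.93 and 2.77 in SN and 2.70, 2.49 and 2.48 in parental cells. In each of the 3 genes the Colony arrays lay below the SN arrays, by -0.29 ± 0.09 for MKI67, -0.31 ± 0.10 for TOP2A and -0.42 ± 0.09 for FOXM1 (SE; adjusted p = 0.198, 0.201 and 0.127).

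**Figure D3:**
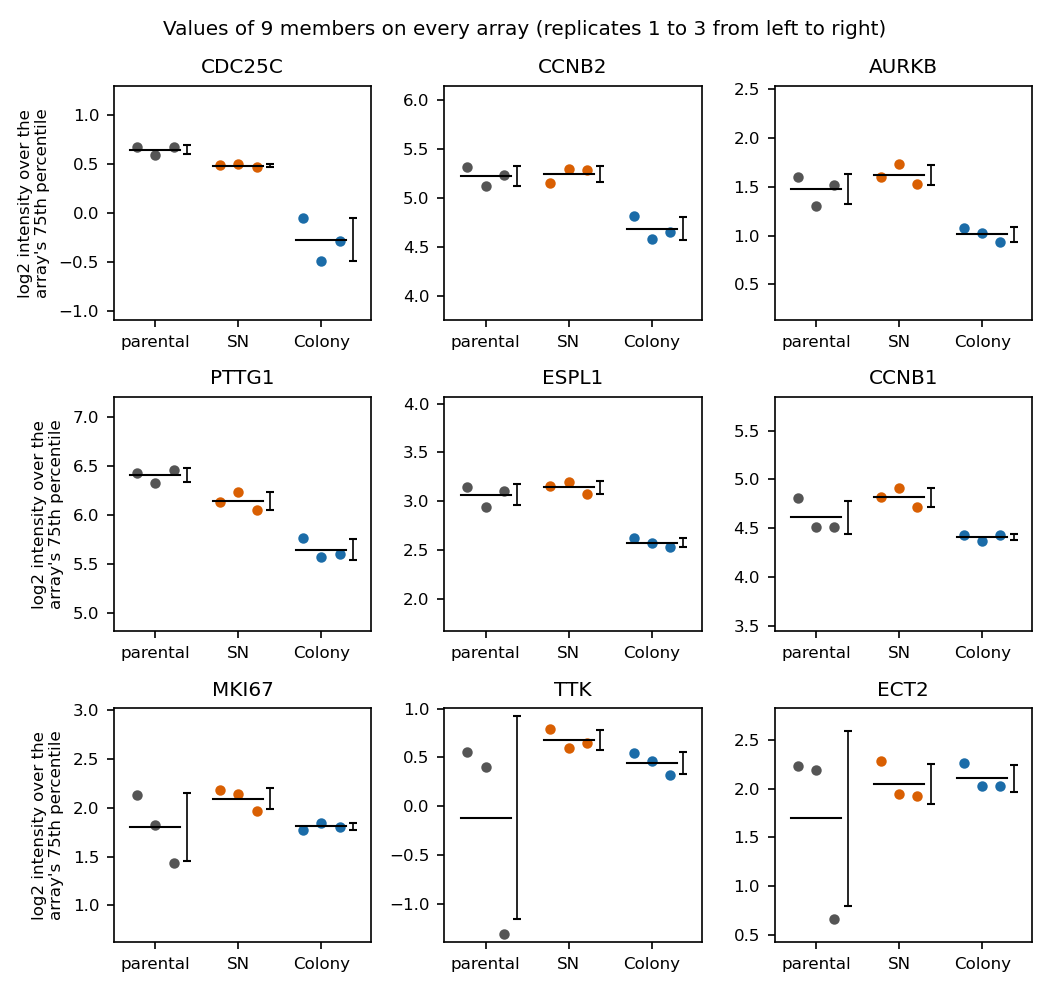
Values of 9 members on every array (points, replicates 1 to 3 from left to right in each group) as log2 intensity over the array's 75th percentile, with the group mean (line) and SD (bar at the right, n = 3). Every panel spans the same width on the log2 scale. In CDC25C, CCNB2, AURKB, PTTG1 and ESPL1 the Colony points lie below all others, while TTK and ECT2 show 1 parental array, the third, far below the rest.

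The members were also divided by the CHR match in their promoters. The median change from SN to Colony cells was -0.35 in the 15 members with a CHR match in the last 50 bases, -0.31 in 7 with one further up, and -0.41 in 16 members whose promoters held none. The 6 measured members without a promoter in the table had a median of -0.44. No test was made of these medians.

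Setting OSK-A549-SN beside parental A549 cells compares the transduced cells outside the colonies with cells that were not transduced and had been passaged less. The mean of 41 of 44 members was higher in SN cells, by a median of 0.33 over all members, where the median of all 32218 probes tested was 0.08. No member passed an adjusted p of 0.05 in limma (smallest 0.149), against 1.82% of all probes, or 1.55% with a fold over 2 as well. At an unadjusted p under 0.05, 6 members were higher and none lower (11.2% of all probes were higher at that threshold). These 6 were CCNA2, KIF20A, KIF4A, CDC20, UBE2C and MYBL2, named after their values were seen. All 3 SN arrays lay above all 3 parental arrays in 14 members (16.8% of all probes) and below them in 3 (15.3%), which were CDC25C, PTTG1 and NUSAP1.

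The marker lists held changes in both directions. The summed intensity of the 8 blood and endothelial markers, also unscaled, was 317 to 368 on the parental arrays. It was 561 to 674 on the SN arrays and 531 to 614 on the Colony arrays. CD68 passed the F test (adjusted p = 0.0132). Of the markers tested, 4 of 6 were higher and 2 lower in SN than in parental cells, with a median of 0.40. In Colony against parental cells 2 of 5 were higher and 3 lower, with a median of -0.47. In each comparison 4 were detected on all arrays. KDR entered the former only through 1 SN array, and CD3E the latter only through 1 parental array. For these genes the filter favoured the group in which they were detected. Of the 7 mesenchymal markers 6 or 7 were detected. Their unscaled summed intensity was 39380 to 47160 in parental, 53600 to 66130 in SN and 55670 to 55910 in Colony cells. On the scaled values 4 markers were higher and 3 lower in either comparison with parental cells. SNAI2 was detected on 0 parental arrays and entered these comparisons only through 1 Colony and 2 SN arrays. The part of these marker lists in the differences from parental cells was not tested.

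The largest upward difference in this comparison was that of ANLN, 0.80 with a 95% interval from -0.17 to 1.77, and the largest downward one that of PTTG1, -0.27 with an interval from -0.57 to 0.04. TOP2A differed by 0.68 (interval -0.22 to 1.58), CDK1 by 0.53 (-0.26 to 1.32), MKI67 by 0.29 (-0.21 to 0.80) and FOXM1 by 0.30 (-0.02 to 0.63). The difference of CCNB1 was 0.20 (-0.15 to 0.56). Its second probe gave -0.33, and the mean of its probes -0.064. The parental arrays were spread in most of these genes. Without the third parental array the median over the members was 0.15, and without the first it was 0.48.

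The comparison of OSK-A549-Colony with parental A549 cells gave members in both directions. The mean was lower in Colony cells in 23 members and higher in 21, with a median of -0.06, where the median of all 30864 probes tested was -0.03. With arrays scaled to their median these values were 0.09 and 0.13, and 16 members were lower. Adjusted p passed 0.05 in 6 members, all lower in Colony cells, against 9.02% of all probes, and the share of members called, 13.6%, was not far from it. None of the 6 had a fold over 2, against 3.7% of all probes called with such a fold. All 3 Colony arrays lay below all 3 parental arrays in 10 members (20.7% of all probes) and above them in 1 (20.9%). At an unadjusted p under 0.05, 8 members were lower (14.9% of all probes) and CDC25B alone was higher, by 0.30 (adjusted p = 0.0887).

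The 6 members called were CDC25C, at -0.92 ± 0.14 (SE; adjusted p = 0.0272), PTTG1 at -0.76 ± 0.11 (adjusted p = 0.025), NUSAP1 at -0.58 ± 0.11 (adjusted p = 0.0379), CCNB2 at -0.54 ± 0.11 (adjusted p = 0.0459), KIF2C at -0.53 ± 0.11 (adjusted p = 0.0485) and ESPL1 at -0.49 ± 0.10 (adjusted p = 0.0458). They belong to different steps, from the activation of CDK1 to the release of sister chromatids. In each of them every Colony array lay below every parental array, at the values given above. None of the 6 stayed under 0.05 when any of the Colony arrays or the second parental array was left out, and few other probes did, with 0.474%, 0% and 0.279% of all probes called without the first, the second and the third Colony array and 0.0033% without the second parental array. Without the first parental array 2 members were called (8.08% of all probes), and without the third there were 7 (13.8%). With arrays scaled to their median 3 were called (12.1%), and with no filter on dim probes none (1.34%). With the replicate number as a block 0 were called (0%).

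Other members had values on the opposite side in this comparison. TTK had the largest upward difference, 0.56 with an interval from -0.71 to 1.82, and turned to -0.039 without the third parental array. CDK1 differed by 0.23 and TOP2A by 0.37, and they became -0.13 and -0.049 without that array. MKI67 stood at 0.01 (interval -0.46 to 0.48) and its other probes at 0.12 and -0.34, FOXM1 at -0.12 (-0.40 to 0.16) and CCNB1 at -0.20 (-0.50 to 0.10). The second probe of CCNB1 stood at -0.57, and the mean of its probes at -0.39. No call was made for any of these 6 genes.

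Both comparisons with parental cells rest on 3 parental arrays that differed among themselves. The median SD of a member was 0.34 over the parental arrays, 0.10 over the SN arrays and 0.08 over the Colony arrays, and over all probes detected on all 9 arrays it was 0.21, 0.16 and 0.09. In these medians members were more spread than other probes in parental cells, and less in the other groups. The first parental array held 42 of 44 members above their own 9-array mean. The third, labelled P99, held 24 of 44 at their lowest (54.5%), against 19% of all probes, and 22 of 44 stood over 0.5 below the mean of the other parental arrays (50%), against 10.8%. The median of this difference was -0.49 over the members and 0.14 over all probes. It was largest in TTK (-1.79), KIF14 (-1.57), ECT2 (-1.55) and CENPE (-1.47), and the highest member stood at 0.14. The same array showed a median of -0.27 in other G2/M and mitosis genes, -0.20 in the constitutive machinery and -0.10 in DNA replication and G1/S genes. Without it, 37 of 44 members had lower means in Colony than in parental cells, with a median of -0.26, and without the first parental array 16 had, with a median of 0.07. What sets these arrays apart was not tested.

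**Figure D4:**
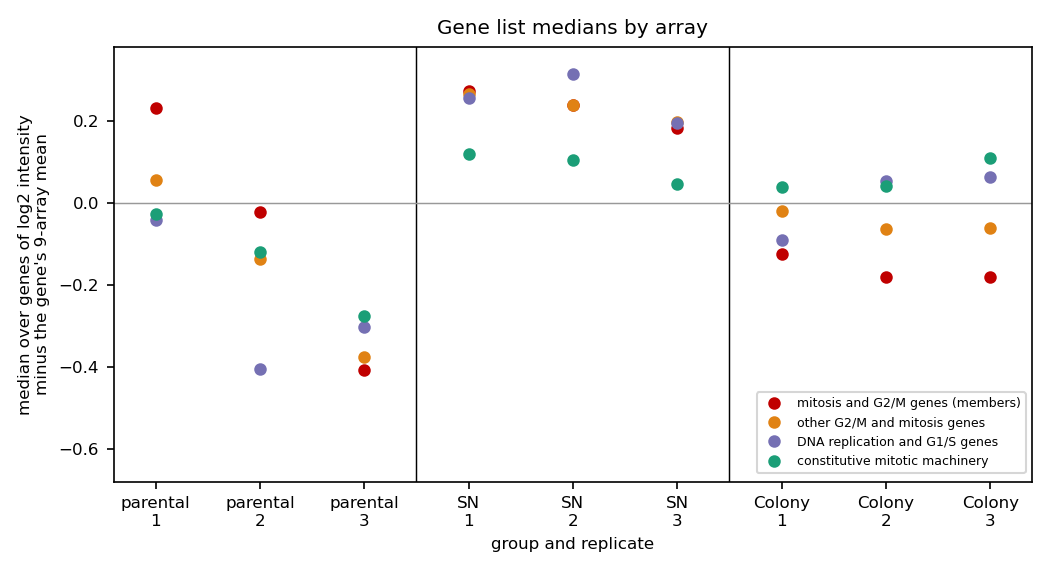
Median over the genes of each list of the log2 intensity minus the gene's 9-array mean (vertical axis), for each array (horizontal axis). The members lie between 0.18 and 0.27 on the SN arrays and between -0.18 and -0.12 on the Colony arrays, and run from 0.23 down to -0.41 over the parental arrays.

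The members were then set beside other gene lists in the comparison of Colony with SN cells, in which 19.5% of all probes had an unadjusted p under 0.05. The differences between lists were not tested. Of 54 other G2/M and mitosis genes, such as INCENP, KIF18B and CCNF, 52 were lower in Colony cells, with a median of -0.33 and 0 called (33 at an unadjusted p under 0.05, all lower). INCENP, the scaffold of the chromosomal passenger complex that AURKB belongs to, differed by -0.65 ± 0.08 (SE), KIF18B by -0.73 ± 0.13 and CCNF by -0.64 ± 0.07. Of 41 DNA replication and G1/S genes, 37 were lower, with a median of -0.25 and 0 called (23 unadjusted, all lower), and CDC45, part of the replicative helicase, differed by -0.55 ± 0.10. Among genes that do mitotic work without being restricted to the cell cycle 17 of 31 were lower, with a median of -0.02 and 0 called (1 unadjusted). The 11 MuvB and DREAM subunits had 7 lower, a median of -0.02 and 0 called (1 unadjusted), the largest difference being that of TFDP2, a dimer partner of the E2F factors, at -0.49 ± 0.11.

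**Figure D5:**
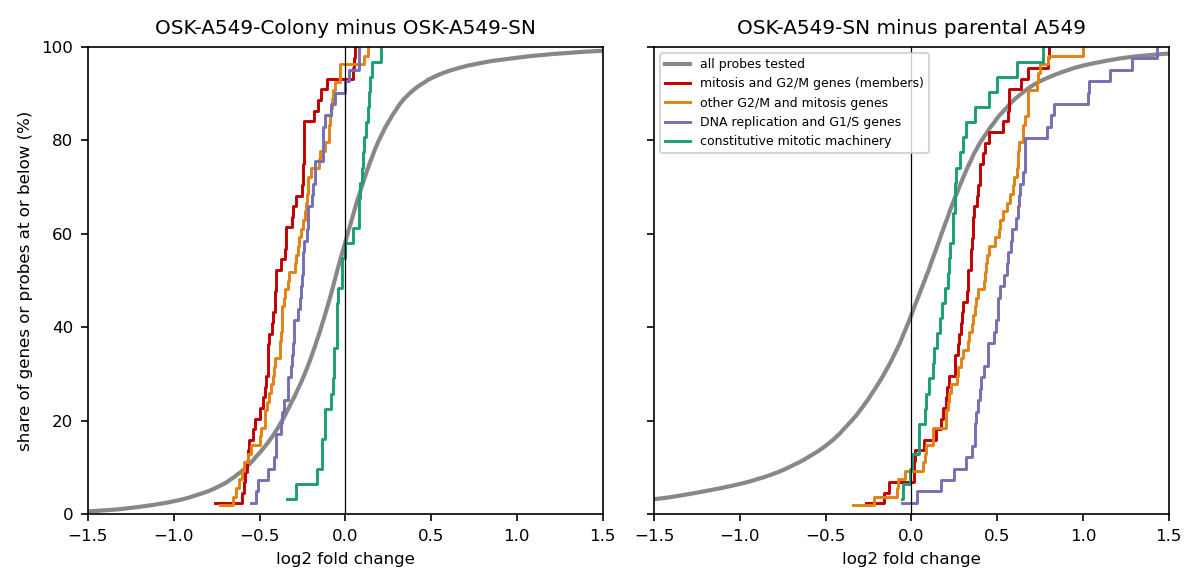
Share of genes or probes (vertical axis, %) with a log2 fold change at or below the value on the horizontal axis, for the members, 3 other gene lists and all probes tested. The curve of the members lies left of that of all probes over most of its height in Colony minus SN cells, where its median is -0.41, and right of it over most of its height in SN minus parental cells, where its median is 0.33.

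In the comparison of SN with parental cells the G1/S genes had a median of 0.54, with 40 of 41 higher, 2 called and 30 at an unadjusted p under 0.05 (73.2%, all higher, against 21.6% of all probes in either direction), beside 0.33 in the members, and the other G2/M and mitosis genes had 0.43 with 49 of 54 higher and 0 called (19 unadjusted, all higher). The constitutive machinery had a median of 0.21, with 28 of 31 higher and 0 called (4 unadjusted, all higher). In the comparison of Colony with parental cells the medians were 0.26 in the G1/S genes (3 called, all higher, 7.32%), 0.14 in the other G2/M and mitosis genes (5 called, all lower, 9.26%), 0.20 in the constitutive machinery (1 called, higher, 3.23%) and 0.28 in the MuvB and DREAM subunits (1 called in each direction). For the first 3 of these lists the shares were near or below the 9.02% of all probes. The pair called among the last were E2F4 at 0.52 ± 0.10 (SE; adjusted p = 0.0412), the E2F factor of the DREAM complex, and TFDP2 at -0.92 ± 0.12 (adjusted p = 0.0219). These comparisons share arrays, so their values stand side by side and are not set against each other.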

How the data were processed

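Expression of 3 parental A549, 3 OSK-A549-Colony and 3 OSK-A549-SN cultures had been measured on Agilent 1-colour arrays. The deposited scanner output (Agilent Feature Extraction 11.5.1.1) holds linear intensities of 62976 spots per array, background-subtracted by the authors' scanner software. The authors also deposited a log2 table of the same arrays, whose values differ from log2 of these intensities by 1 constant per array. Its scale is log2, with each array shifted and no gene centring.

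Control spots (4259) and outlier spots (357 to 484 per array) were left out, spots of a probe were averaged, and the 75th percentile of each array was subtracted on the log2 scale. No intensity bound was needed, since all 44 measured members were detected on all arrays. A probe counted as detected where at least 0.5 of its spots were positive, significant and well above background. Symbols were assigned by matching RefSeq accessions to the GRCh38.p14 gene table (30275 of 32065 accession-bearing probes), while the array's own annotation is hg19 and gives no coordinate here. Each comparison was fitted on its own 6 arrays with limma 3.58.1 (R 4.3.3) over all probes detected on at least 1 of them, with Benjamini-Hochberg adjustment, and the F test used all 9. The fit was tested on simulated data. The number of arrays limits the precision.

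The members and gene lists were chosen with earlier results of these data known. Values on every array are given for the members with the smallest F test p in each role (2, or 1 in roles of 3 or fewer), for CCNB1, CDK1, MKI67, TOP2A and FOXM1, for called members and for the largest changes. Of each other list up to 3 genes with the largest change between Colony and SN cells may be named. The alternatives tried are those of the closing section. Normexp used the median spot brightness, since the mean was not in the columns used.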

Additional observations from a re-analysis of the deposited data

How the results depend on the processing

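Between Colony and SN cells the median change of the members kept its direction in 17 alternatives, from -0.45 to -0.28. Not all of these could move the median. It stayed at -0.41 with either change of the detection filter, the replicate block, a joint fit of all arrays and the trend and robust options. Those settings change the probes tested or the variance, and not the members' fold changes. The slide block repeated the fit without the third SN array, with -0.45 in both. The number called was 0 except with normexp (13), probes detected on every array (12) and the trend and robust options (24). Between Colony and parental cells the count of 6 became 3 with array-median scaling, 0 with no detection filter and 0 to 7 with an array left out. Its median of -0.06 became 0.094 with array-median scaling and ran from -0.26 to 0.074 with an array left out. Between SN and parental cells the median ran from 0.15 to 0.48 with an array left out, with 0 called throughout. Members past the F test numbered 2 with array-median scaling, 2 with no detection filter, 13 with probes detected on every array, 17 with the trend and robust options and 1 to 15 with an array left out. No slide block could be made between Colony and parental cells, whose arrays share a slide. The cause was not tested.

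With the replicate number as a block, 0 members were called in each comparison and 1 passed the F test (3.61% of all probes, against 11.4% without the block). Same-numbered Colony and SN arrays deviated together with correlations of 0.239, 0.0732 and 0.138 over 23758 probes, so pairing was not established for every number, although Colony and SN arrays of a number share a passage label. Within numbers 43, 41 and 41 of 44 members were lower in Colony cells. No source used here states that arrays of a number came from the same dish. As a hint from the data, each Colony array deviated more like the SN array of its number than like the other SN arrays. For number 2 the correlation was 0.0732, beside 0.0733 with the third parental array. No such match by number held between Colony and parental arrays.

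Some single values reversed. ECT2, Colony against SN, became -0.011 with the slide as a block and ran from -0.024 to 0.17 with an array left out. Against parental cells, MKI67 in Colony became -0.036 with quantile normalization, -0.071 with probes averaged and -0.17 to 0.18 with an array left out, and FOXM1 became 0.036 with array-median scaling. Leaving out an array gave a range of -0.13 to 0.47 in CDK1, -0.049 to 0.64 in TOP2A and -0.039 to 0.89 in TTK, each lowest without the third parental array. CCNB1, SN against parental, became -0.064 with probes averaged.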
